A study of Mus musculus with 6 samples.

Results

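The 6 genes described here encode the paired muscle and ubiquitous forms of 3 cytochrome c oxidase subunits, measured on arrays of mouse C2C12 cells. They were chosen by name, as all non-control probes whose RefSeq accession belongs to Cox6a2, Cox7a1 or Cox8b, the muscle forms, or to Cox6a1, Cox7a2 or Cox8a, the ubiquitous forms. All 6 members were found among the 20659 genes named on the array, through 7 probes, of which Cox8a had 2 and the other members 1 each. The C2C12 line is a mouse myoblast line that stops dividing and fuses into myotubes when serum is lowered. Cells had been grown in 10% fetal bovine serum to near confluence, transfected with siRNA to SYISL, a long non-coding RNA (si-SYISL, 3 arrays), or with the control oligonucleotide (si-NC, 3 arrays), and kept for 2 days in medium with 2% horse serum. All 6 arrays thus came from 1 cell line at 1 time of differentiation, and the groups differed by the transfected oligonucleotide only, as labelled. The gene table used here assigned no probe to SYISL, and its level was not analysed here.

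Cytochrome c oxidase, complex IV of the respiratory chain, takes electrons from cytochrome c, reduces oxygen to water and pumps protons across the inner mitochondrial membrane. Its catalytic core is encoded by mitochondrial DNA, and the surrounding small subunits, which adjust its activity and stability, are encoded in the nucleus. Subunits 6A, 7A and 8 exist in mammals as a ubiquitous, or liver-type, form and a form found in heart and skeletal muscle, and differentiating muscle cells express the muscle forms alongside the ubiquitous ones. In the mouse, Cox8b and Cox7a1 are also known as genes of brown fat.

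Promoter windows of RefSeq, on build GRCm38.p6, were available for 5 of 6 members and run from 250 bases before to 50 bases after the start site; Cox6a2 is named only. The windows below set muscle forms beside ubiquitous ones, and they are printed 5′ to 3′ on the strand of the gene. Cox8b and Cox8a are partners, but Cox7a1 and Cox6a1 are not. The window of Cox7a2, the partner of Cox7a1, is described without its letters. In Cox8b and Cox7a1 the capitals mark the E-box CANNTG, the letters bound by MyoD and related factors, and TATAAA. In Cox8a and Cox6a1 they mark CCGGAA, the core letters of ETS factors such as GABP, and the 10-letter palindrome of nuclear respiratory factor 1, the run of capitals in Cox6a1 that reads alike on both strands; all motifs were searched on both strands.
Cox8b: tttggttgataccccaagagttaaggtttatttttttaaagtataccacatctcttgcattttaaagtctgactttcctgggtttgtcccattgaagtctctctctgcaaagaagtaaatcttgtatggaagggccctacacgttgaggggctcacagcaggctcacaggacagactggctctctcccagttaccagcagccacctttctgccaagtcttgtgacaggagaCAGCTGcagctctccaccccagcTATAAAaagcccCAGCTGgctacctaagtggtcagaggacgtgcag
Cox8a: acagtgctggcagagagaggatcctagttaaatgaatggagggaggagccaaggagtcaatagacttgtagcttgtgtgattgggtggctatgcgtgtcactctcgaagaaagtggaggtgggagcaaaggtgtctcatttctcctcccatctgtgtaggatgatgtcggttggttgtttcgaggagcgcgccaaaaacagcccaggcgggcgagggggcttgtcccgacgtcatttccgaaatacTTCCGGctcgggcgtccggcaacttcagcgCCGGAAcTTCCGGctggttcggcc
Cox7a1: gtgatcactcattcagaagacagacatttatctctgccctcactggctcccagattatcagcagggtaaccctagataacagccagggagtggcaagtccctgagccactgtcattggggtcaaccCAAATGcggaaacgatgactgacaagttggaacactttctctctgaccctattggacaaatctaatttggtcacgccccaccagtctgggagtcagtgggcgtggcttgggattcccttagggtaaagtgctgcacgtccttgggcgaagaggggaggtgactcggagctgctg
Cox6a1: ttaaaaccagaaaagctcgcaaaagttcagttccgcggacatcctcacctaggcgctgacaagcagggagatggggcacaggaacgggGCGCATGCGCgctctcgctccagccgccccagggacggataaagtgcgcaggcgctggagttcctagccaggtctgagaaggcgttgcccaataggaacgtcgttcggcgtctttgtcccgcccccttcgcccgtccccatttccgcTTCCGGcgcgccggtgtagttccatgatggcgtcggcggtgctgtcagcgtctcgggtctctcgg

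The Cox8b window lies at chr7:140900397-140900696 on the minus strand and holds 2 E-boxes, both of them CAGCTG, and 1 TATAAA. Counting the RefSeq start as base 1, the E-boxes begin at -19 and 17 and TATAAA begins at 5, so TATAAA and 1 of the E-boxes lie after the annotated start. The Cox7a1 window, at chr7:30183921-30184220 on the plus strand, holds 1 E-box, CAAATG, at -124. The windows of the ubiquitous forms hold CCGGAA, which those of Cox8b and Cox7a1 do not: 3 times in Cox8a at chr19:7217567-7217866, at -4, 27 and 34, and once each in Cox6a1 at chr5:115348909-115349208 and Cox7a2 at chr9:79759804-79760103, all on the minus strand. CCGGAA begins at -15 in Cox6a1 and at -172 in Cox7a2. Of the 5 windows, only that of Cox6a1 holds the palindrome of nuclear respiratory factor 1, at -162. The muscle forms' windows hold 2 CpG in Cox8b and 7 in Cox7a1, whereas those of the ubiquitous forms hold 32 in Cox6a1, 20 in Cox7a2 and 19 in Cox8a; the median over 32851 windows of 27025 genes is 7. GC content is 48.3% in Cox8b, 53.0% in Cox7a1, 63.0% in Cox6a1, 56.7% in Cox7a2 and 56.0% in Cox8a.

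Of all windows of the same length, 72.3% hold CANNTG, which includes CAGCTG, and 16.3% hold CAGCTG itself. The letters TATAAA stand in 13.6%, CCGGAA in 14.9% and the nuclear respiratory factor palindrome in 0.971%. Cox8a and Cox7a2 hold 1 CANNTG each as well. The SP1 letters GGGCGG occur in Cox6a1 and Cox7a2 and in 35.7% of all windows. The MEF2 letters (CTA and TAG with any 4 bases between) and TCAAGGTCA, those of the estrogen-related receptors, stand in none of the 5 windows and in 3.69% and 0.423% of all windows. These matches describe letters in a window and nothing about binding.

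Signals are given relative to the 75th percentile of their own array, and 43020 non-control spots were read on each. Spots well above background made up 87.9% to 90.6% of si-SYISL arrays and 78.2% to 84.6% of si-NC arrays, while the median local background was 34 to 40.5 intensity units on si-SYISL arrays and 36 to 50 on si-NC arrays. No spot was saturated (0 on each array). In both groups, replicates 1 and 3 were closer than repeated spots of 1 probe were to each other. Over 399 probes with 10 spots, their chi-square per probe was 0.214 in 1 group and 0.252 in the other, against 24.7 to 163 for the remaining 13 array pairs. Each such pair was averaged and counted as 1 sample, leaving 2 samples in each group, and this small number limits the precision. Whether replicates were separate cultures is not stated in the labels, and the p-values thus reflect the spread of these samples alone, which may be technical. Replicates 1 and 2 of both groups were scanned together and replicate 3 of both groups in another scan. As replicate 3 was counted as 1 sample with replicate 1, the second scan adds no separate sample.

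Among 28563 features (genes, or probes without a gene name) that passed the filter, the median difference between si-SYISL and si-NC was 0.16 on the log2 scale. Differences below are relative to that median unless stated otherwise. No feature passed an adjusted p of 0.05 in limma's moderated test with Benjamini-Hochberg adjustment (0 of 28563, 0%), and the smallest adjusted p was 0.0843. All p-values test the difference before that median was subtracted. At an unadjusted p under 0.05, 4794 features (16.8%) were higher and 1671 (5.85%) lower in si-SYISL. The median difference also depended on brightness: in 4 equal bins of features, dimmest first, it was 0.36, 0.17, 0.07 and 0.08 before subtraction.

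All 7 member probes were well above background on all 6 arrays, and 6 of 6 members passed the filter. The 3 muscle forms were higher in si-SYISL than in si-NC on every array, led by Cox8b, while the 3 ubiquitous forms lay within 0.05 of the median of all features. None of the 6 members passed the adjusted threshold (0 of 6, against 0% of all features). At an unadjusted p under 0.05, 3 of 3 muscle forms and 0 of 3 ubiquitous forms were higher, where 16.8% of all features were. In 6 of 6 members the si-SYISL samples both exceeded the si-NC samples, as they did in 46.3% of all features. The median difference was 0.66 over the muscle forms and -0.017 over the ubiquitous forms.

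Cox8b encodes the muscle form of subunit 8, whose human counterpart is a pseudogene. Its signal was 3.14, 2.90 and 3.12 times the array's 75th percentile in si-SYISL replicates 1 to 3, against 1.13, 1.17 and 1.14 in si-NC replicates 1 to 3. The groups did not overlap, and the 2 samples of a group lay 0.11 apart in si-SYISL and 0.039 apart in si-NC on the log2 scale. The difference was 1.22 ± 0.11 (SE, 2 samples a group; 95% interval 0.92 to 1.53), a 2.34-fold higher level in si-SYISL relative to the median feature and 2.61-fold before that subtraction. Of all features, 1.11% had a larger difference. In limma the unadjusted p was 0.000149 and the Benjamini-Hochberg adjusted p 0.0843. With the scan as a block and the shared sample of replicates 1 and 3 as a random block, the difference was 1.22 (limma adjusted p = 0.0453). Replicates 1 and 3 were kept as separate arrays in that fit. Within the scans the difference was 1.23 for replicates 1 and 2 and 1.35 for replicate 3. The latter is no separate sample, as replicate 3 was counted with replicate 1. The call also turned on which sample was left out, in fits where 1 group has 1 sample and the spread within groups comes from the other group alone: leaving out si-NC replicate 2 gave 1.27 (limma adjusted p = 0.0494) and leaving out si-NC replicates 1 and 3 gave 1.20 (limma adjusted p = 0.0235). The limma adjusted p was 0.252 when si-SYISL replicate 2 was left out (1.32) and 0.288 when si-SYISL replicates 1 and 3 were (1.14).

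Cox6a2 encodes the muscle form of subunit 6A, which in the bovine heart enzyme takes part in adjusting activity to the ratio of ATP to ADP. Its signal was 0.768, 0.836 and 0.782 of the 75th percentile in si-SYISL replicates 1 to 3 and 0.441, 0.472 and 0.440 in si-NC replicates 1 to 3. The lowest si-SYISL array stood well above the highest si-NC array, and the 2 samples of a group were 0.11 apart in si-SYISL and 0.099 apart in si-NC. The difference was 0.66 ± 0.12 (95% interval 0.34 to 0.97), or 1.58-fold, with a limma unadjusted p of 0.00156 and an adjusted p of 0.107. A larger difference was found in 6.11% of all features. Within the scans it was 0.65 for replicates 1 and 2 and 0.73 for replicate 3, which was counted as 1 sample with replicate 1.

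Cox7a1 encodes the muscle form of subunit 7A, a small membrane subunit. Its signal was 0.403, 0.396 and 0.410 of the 75th percentile in si-SYISL replicates 1 to 3 and 0.284, 0.313 and 0.281 in si-NC replicates 1 to 3. These groups did not overlap either, but the 2 si-NC samples lay 0.15 apart and the 2 si-SYISL samples 0.039 apart. The difference, 0.27 ± 0.12, had a 95% interval of -0.05 to 0.59 (limma unadjusted p = 0.0186 before subtraction, adjusted p = 0.163). A larger difference was found in 19.7% of all features, so Cox7a1 was not unusual among them. Within the scans it was 0.26 for replicates 1 and 2 and 0.45 for replicate 3, which has 1 array a group. Replicate 3 was counted as 1 sample with replicate 1. Against the median of each gene's own brightness bin, the difference was 0.36 for Cox7a1, 0.75 for Cox6a2 and 1.31 for Cox8b. The interval of Cox7a1 thus depends on which median is subtracted.

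**Figure D1:**
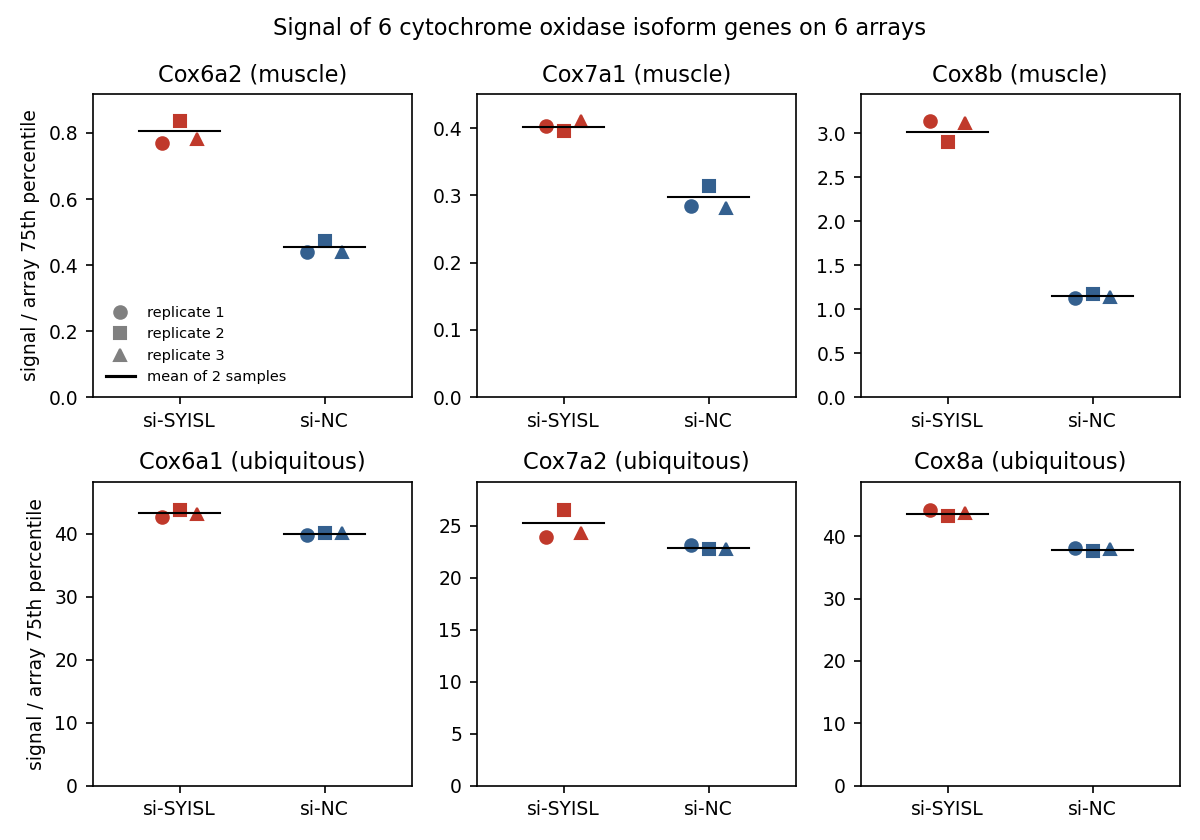
Signal of each member relative to its array's 75th percentile, on linear axes that start at 0 and differ between panels, with 1 point for each array and a line for the mean of 2 samples, of si-SYISL and si-NC. The 3 si-SYISL arrays of Cox8b sit between 2.90 and 3.14 and the 3 si-NC arrays between 1.13 and 1.17, while the ubiquitous forms lie close together in both groups.

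The ubiquitous partners were bright and nearly level. Cox8a, the ubiquitous form of subunit 8, had signals of 44.3, 43.2 and 43.7 in si-SYISL replicates 1 to 3 and 38.0, 37.7 and 37.9 in si-NC replicates 1 to 3. Its difference was 0.042 ± 0.11 (95% interval -0.24 to 0.33; limma adjusted p = 0.302). The second Cox8a probe read 29.6, 32.2 and 29.2 in si-SYISL and 28.4, 28.8 and 28.4 in si-NC and gave -0.049, so the sign for Cox8a depended on the probe. It also turned to -0.016 under quantile normalisation.

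Cox6a1, the ubiquitous form of subunit 6A, had signals of 42.6, 43.8 and 43.1 in si-SYISL replicates 1 to 3 and 39.8, 40.1 and 40.2 in si-NC replicates 1 to 3. The difference was -0.048 ± 0.11 (95% interval -0.33 to 0.24; limma adjusted p = 0.512). Cox7a2, the ubiquitous form of subunit 7A, read 23.9, 26.6 and 24.4 in si-SYISL and 23.2, 22.8 and 22.8 in si-NC, a difference of -0.017 ± 0.12 (95% interval -0.33 to 0.30; limma adjusted p = 0.450). In both genes every si-SYISL array read above every si-NC array, by a mean log2 difference of 0.12 for Cox6a1 and 0.15 for Cox7a2 before subtraction, slightly less than the median feature. Against the median of the brightest bin alone, the differences were 0.035 for Cox6a1, 0.066 for Cox7a2 and 0.12 for Cox8a, so those of Cox6a1 and Cox7a2 changed sign. Within the scan of replicate 3, that of Cox6a1 was 0.0067. The sign for Cox7a2 turned to 0.0080 with normexp background. The intervals do not show that these genes were equal in the 2 groups.

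**Figure D2:**
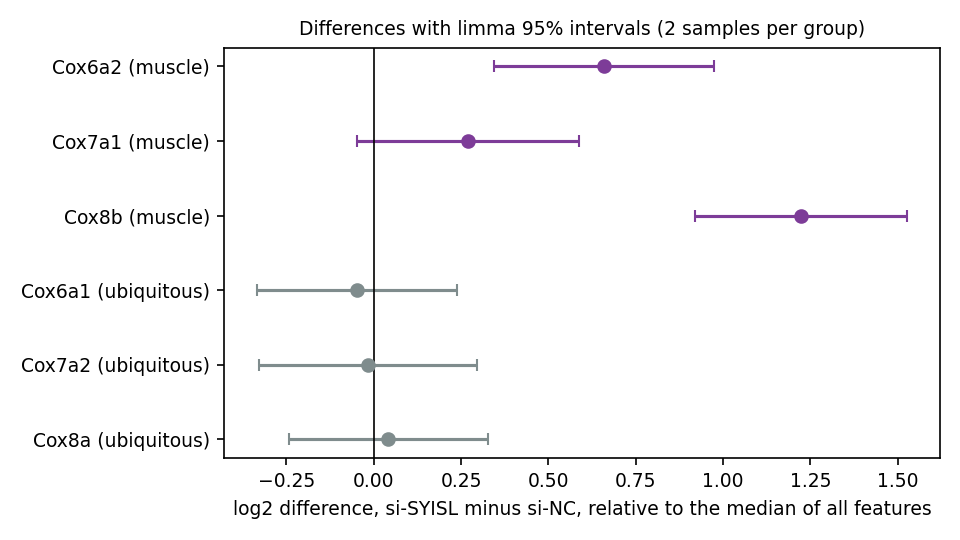
Difference between si-SYISL and si-NC on the log2 scale, relative to the median of 28563 features, for the 6 members, with bars for the 95% interval of limma's moderated test. Cox8b (1.22) and Cox6a2 (0.66) have intervals above 0, the interval of Cox7a1 (0.27) includes 0, and the ubiquitous forms lie at -0.048, -0.017 and 0.042 with intervals that include 0.

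A ratio of 2 isoforms read on the same array does not change when the whole array is scaled by 1 factor, though it can change under quantile normalisation. The Cox8b to Cox8a ratio was higher in si-SYISL than in si-NC by 1.18 ± 0.048 (SE) on the log2 scale, or 2.27-fold. Centred on the mean of all samples, it was 0.63 and 0.55 in the 2 si-SYISL samples and -0.62 and -0.57 in the 2 si-NC samples. The Cox6a2 to Cox6a1 ratio differed by 0.71 ± 0.061, or 1.63-fold, with 0.31 and 0.39 in si-SYISL and -0.40 and -0.31 in si-NC. In both pairs the gap between groups was several times the gap between samples of a group.

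The Cox7a1 to Cox7a2 ratio differed by 0.29 ± 0.12, or 1.22-fold, with 0.23 and 0.054 in the si-SYISL samples and -0.22 and -0.061 in the si-NC samples. Replicate 2 of each group lay close to the other group's replicate 2, at a distance smaller than that between samples of the same group. This ratio moved to 0.44 under quantile normalisation, which gave 1.37 for the Cox8b pair and 0.88 for the Cox6a2 pair, and to 0.19 with normexp background. In each of the 3 pairs the groups did not overlap, and the two-sided exact permutation test gave p = 0.333, the smallest that 2 against 2 samples can give, also after adjustment over the 3 pairs. With the 6 arrays as 6 samples the exact permutation p was 0.1, again the smallest possible.

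**Figure D3:**
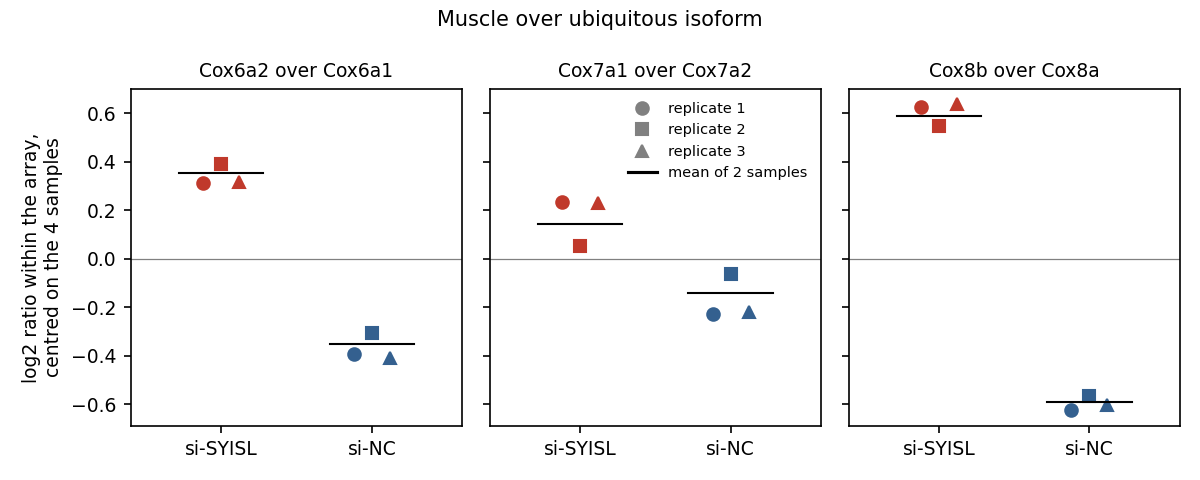
Log2 ratio of each muscle form to its ubiquitous partner on each array, centred on the mean of the 4 samples, for si-SYISL and si-NC. The Cox8b ratio separates the groups by 1.18, the Cox6a2 ratio by 0.71 and the Cox7a1 ratio by 0.29, where replicate 2 of both groups lies near 0.

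The size of the difference varied among the muscle forms. The Cox8b difference exceeded that of Cox6a2 by 0.57 ± 0.11 and that of Cox7a1 by 0.95 ± 0.065, and the Cox6a2 difference exceeded that of Cox7a1 by 0.39 ± 0.078 (SE, 2 samples a group; exact permutation p = 0.333 each). Across the 4 samples, Cox6a2 ranked 326th among 17484 named genes in likeness to Cox8b, and Cox7a1 ranked 1970th. In likeness to Cox6a2, Cox7a1 ranked 1107th and Cox8b 3987th. In likeness to Cox7a1, the ubiquitous Cox8a (2469th) ranked before Cox6a2 (6996th) and Cox8b (15827th). Likeness was the root mean square difference between gene-centred log2 levels, and with 4 samples it mainly reflects the size of the group difference.

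The genes most like Cox8b in this measure were Nmrk2, a muscle nicotinamide riboside kinase (0.019), the Z-disc protein gene Actn2 (0.048), the carboxypeptidase gene Cpz (0.049) and Tnnc2, fast skeletal troponin C (0.066). Their differences were 1.15 to 1.23. Those most like Cox6a2 were Podxl2 (0.018), the serine protease gene Prss12 (0.021), the phosphodiesterase gene Pde7b (0.024) and the transcription factor gene Bach2 (0.027). Those most like Cox7a1 were the syndecan gene Sdc4 (0.0076), the integrin gene Itgb5 (0.011), the heparanase gene Hpse (0.013) and Slc13a2os (0.013).

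The other nuclear-encoded subunits of the complex and their close relatives had differences below those of all 3 muscle forms. Of 14 genes, 13 passed the filter (Cox8c, the testis form of subunit 8, did not), their median difference was -0.07, and 0 passed the adjusted threshold. At an unadjusted p under 0.05, 1 was higher and 0 lower, against 16.8% and 5.85% of all features. The differences of the 13 genes ran between -0.43 and 0.18. Cox7b and Cox5b, small structural subunits without a muscle form in this list, had 0.18 ± 0.11 and 0.10 ± 0.11 (limma adjusted p = 0.183 and 0.247). Cox4i1, the common form of the regulatory subunit 4, had 0.017 ± 0.11, and Cox4i2, its lung form induced by low oxygen, had -0.32 ± 0.12. Cox6b1 and its testis form Cox6b2 had -0.37 ± 0.14 and -0.43 ± 0.12. Cox7a2l, a relative of subunit 7A that joins complexes III and IV into supercomplexes, had 0.10 ± 0.13. Ndufa4, first counted in complex I and now in complex IV, and its relative Ndufa4l2 had -0.36 ± 0.14 and 0.11 ± 0.14. The remaining 4 genes were Cox5a (-0.10), Cox6c (-0.07), Cox7c (-0.07, with -0.13 to 0.037 over 3 probes) and the testis form Cox7b2 (0.12 ± 0.36). Cox7b2 passed the filter through si-SYISL alone, with 1 of 3 si-NC arrays well above background. Limma's adjusted p was 0.273 to 0.776 for the genes after Cox5b.

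The factors that deliver copper and heme to the enzyme and assemble it had a median below that of all features. Of 24 assembly genes tested, 0 passed the adjusted threshold, and the median was -0.22. At an unadjusted p under 0.05, 2 were higher and 2 lower, against 16.8% and 5.85% of all features. Both si-SYISL samples lay below both si-NC samples in 11 of the 24 and above in 7, against 15.8% below and 46.3% above among all features. Taco1, a translational activator of the mitochondrially encoded subunit COX1, had -0.66 ± 0.11 (limma adjusted p = 0.136), and Cox16, which acts in the assembly of COX2, had -0.67 ± 0.13 (limma adjusted p = 0.151), with -0.30 from its other probe.

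The other respiratory chain complexes had list medians near that of all features, with single genes between -0.44 and 0.37. Among all features, 16.8% were higher and 5.85% lower at an unadjusted p under 0.05. In complex I, 8 of 36 genes were higher and 0 lower at that level, 0 passed the adjusted threshold, and the median was 0.014. Its smallest p-values were those of Ndufb10 (0.35 ± 0.12) and Ndufb7 (0.29 ± 0.12). In complexes II and III with cytochrome c, 2 of 14 were higher and 0 lower at that level, with a median of 0.026. The examples there were Uqcrc1, a core protein of complex III (0.37 ± 0.19), and Sdhb, the iron-sulfur subunit of succinate dehydrogenase, whose 2 probes gave 0.17 and -0.30. Among 16 ATP synthase genes, 3 were higher and 0 lower, with a median of -0.037, Atp5k at 0.30 ± 0.13 and Atp5e at 0.17 ± 0.11. Limma's adjusted p of these 6 genes was 0.142 to 0.216.

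Regulators of mitochondrial gene expression and DNA had a median of -0.09 over 17 genes, of which 0 passed the adjusted threshold. At an unadjusted p under 0.05, 1 was higher and 2 lower (16.8% and 5.85% among all features). Ppargc1a, the coactivator PGC-1 alpha, which drives mitochondrial biogenesis in muscle, differed in the direction opposite to the muscle oxidase forms. Its log2 level relative to the 75th percentile was -2.80 and -2.75 in the si-SYISL samples and -1.85 and -1.48 in the si-NC samples. The difference was -1.27 ± 0.17 (limma adjusted p = 0.110), and -0.90 from a second probe. Ppard, a nuclear receptor of fatty acid oxidation, had 0.31 ± 0.11 (limma adjusted p = 0.144).

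Muscle forms of other metabolic enzymes and carriers were set beside the members. Of 17 that passed the filter, 11 were higher and 0 lower at an unadjusted p under 0.05 (16.8% higher and 5.85% lower among all features), the si-SYISL samples both exceeded the si-NC samples in 12 (46.3% among all features), and the median was 0.38, the same with Ckmt2 at its bound. None passed the adjusted threshold (0 of 17). Ckmt2, mitochondrial creatine kinase of muscle, was well above background on 3 of 3 si-SYISL arrays and 0 of 3 si-NC arrays. Its signal was at least 2.17-fold higher before the median of all features was subtracted (limma adjusted p = 0.0843). That bound is set by the dimmest probe well above background on each array. Ckmt2 is counted among the 11 but passed the filter through si-SYISL alone, and its p rests on si-NC values below background. Ampd1, in the same list, also passed through si-SYISL alone, with 2 of 3 si-NC arrays well above background. With a filter on all 6 arrays the list held 15 genes, with a median of 0.41. Pgam2, muscle phosphoglycerate mutase, had 1.67 ± 0.16 (limma adjusted p = 0.0843). The list also held Ldhb, better known as the heart form of lactate dehydrogenase.

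The 17 ubiquitous or non-muscle forms of those enzymes had a median of 0.026, and 0 passed the adjusted threshold. At an unadjusted p under 0.05, 4 were higher and 0 lower (16.8% and 5.85% among all features). In 11 of the 17 the si-SYISL samples both exceeded the si-NC samples (46.3% among all features), nearly as many as the 12 of 17 muscle forms. The largest difference was that of Pygl, liver glycogen phosphorylase, at 1.17 ± 0.15 (limma adjusted p = 0.0889). Phka2, a liver form of a phosphorylase kinase subunit, had 0.31 ± 0.13 (limma adjusted p = 0.159). Ldha, in that list, is also the lactate dehydrogenase form of fast muscle. These lists were chosen with earlier results of these data known, and their difference was not tested.

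**Figure D4:**
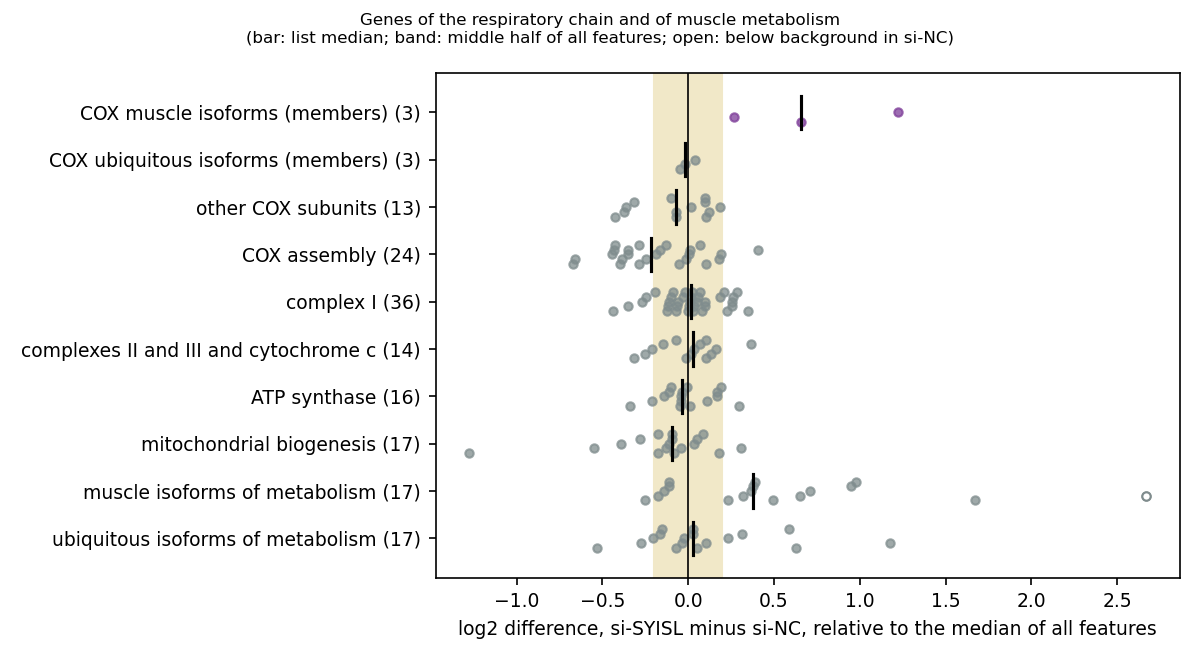
Differences between si-SYISL and si-NC on the log2 scale relative to the median of all features, 1 point a gene, for the muscle and ubiquitous oxidase forms and 8 lists of related genes. The muscle oxidase forms (median 0.66) and the muscle forms of metabolism (median 0.38) lie to the right of the other lists, whose medians lie between -0.22 and 0.026. The open point is Ckmt2, which was below background in si-NC. It is drawn at its fitted difference, which rests on those si-NC values, and not at its bound.

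Skeletal muscle markers were higher in sum in si-SYISL, as the muscle oxidase forms were. The markers were well above background on every array (12 of 12), as the labelled cell line would have them, and their summed signal was 90.8 to 93.0 times the 75th percentile on si-SYISL arrays and 64.4 to 69.6 on si-NC arrays. Of the 12 markers, 7 were higher and 1 lower at an unadjusted p under 0.05, against 16.8% and 5.85% of all features. None passed the adjusted threshold, and their median difference was 0.47. Tnnc2 (1.21 ± 0.11) and Tnnt3, fast troponin T (1.24 ± 0.16), differed about as much as Cox8b. Other markers did not rise relative to the median feature: Myog, myogenin, had -0.017 ± 0.17 and Myod1 had -0.78 ± 0.13. Chrna1, the brightest marker, had -0.28 ± 0.11, Des had -0.071 ± 0.29 and Mylpf had -0.0043 ± 0.11. In RNA from whole cultures, fewer cells of a type and less RNA per cell cannot be told apart. The part of differentiation state in the member differences was not tested.

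Markers of other cells were summed in the same way. Of 10 brown adipocyte markers, 7 were well above background on each si-SYISL array and 5 to 6 on si-NC arrays. Their summed signal was 5.44 to 5.76 in si-SYISL and 5.73 to 6.29 in si-NC. Most of this sum came from Dio2 (mean log2 level 2.10 in si-SYISL and 2.13 in si-NC) and Pparg (0.19 and 0.55). Of the 7 that passed the filter, 2 were higher, Fabp4 and Cidea, and 1 lower at an unadjusted p under 0.05 (16.8% and 5.85% among all features). Cidea was below background in si-NC. Ucp1, the uncoupling protein of brown fat, Elovl3 and Prdm16 were not well above background on any array. Of 8 cardiomyocyte markers, 8 were well above background on each si-SYISL array and 7 to 8 on si-NC arrays, with sums of 2.22 to 2.25 in si-SYISL and 2.32 to 2.40 in si-NC. The 7 fibroblast markers summed to 128.5 to 152.8 in si-SYISL, where 7 were well above background, and to 127.9 to 162.5 in si-NC, where 6 were. Leukocyte and endothelial markers, 6 on the array, summed to 1.59 to 1.69 in si-SYISL and 1.45 to 1.58 in si-NC. This low sum, from which no median was subtracted, was thus slightly higher on every si-SYISL array. Relative to the median feature, however, the median difference of the 6 genes was 0.014. At an unadjusted p under 0.05, 0 were higher and 0 lower (16.8% and 5.85% among all features). The part of these markers in the member differences was not tested.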

How the data were processed

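RNA of 6 C2C12 samples, 1 µg each, was labelled with Cy3 and hybridised to single-colour Agilent arrays. The deposited scanner files hold intensity, as a processed signal that Feature Extraction 11.0.1.1 had background-subtracted and detrended within each array, per the file headers; the submitters' processing notes give version 10.5.1.1. The deposited flags of 0 or 1 per spot (unit other) mark signal well above background, saturation and outliers, per the file headers. The deposited series matrix holds log2 values with nearly equal quantiles on each array; its normalisation is not given in the sources used here, and it served as an alternative.

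From each log2 signal the 75th percentile of its array, taken over all non-control spots, was subtracted. Outlier spots were then left out and the other spots of a probe averaged in R 4.3.3, with files read by data.table (1.17.8). Probes were named through their RefSeq accession (27234 of 39429 probes). The array design was annotated on another build, so no probe coordinates are given. Probes had to be well above background on the 3 arrays of 1 or both groups, and a gene was represented by its brightest kept probe. The test was that of limma 3.58.1 (lmFit and eBayes, two-sided, Benjamini-Hochberg over 28563 features, of which 18638 were named genes; 2.37 prior and 2 residual degrees of freedom). The fit was tested on simulated data. Intervals are from that test at 95%. Promoter letters were counted with Python 3.11.15 and pandas 2.3.3, and figures drawn with matplotlib 3.10.9.

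The members and lists were chosen with earlier results of these data known. Named genes are the 6 members, all measured other oxidase subunits, the 2 genes of smallest p in each other list and the 4 genes most like each muscle form; other names were chosen after their values were seen, among them Myod1, Myog, Ldha and Ldhb. The labels do not say what a shared replicate number means, and the main fit did not pair the samples by it. The correlation of deviations between samples of the same number was -0.031 over 2 pairs. With 2 samples a group, that value cannot show whether the samples were paired. Alternatives covered background correction, normalisation, filter, probe rule, variance model, the 6 arrays as 6 samples, scan, replicate block and each sample left out.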

Additional observations from a re-analysis of the deposited data

How the results depend on the processing

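The directions of Cox8b (1.14 to 1.35), Cox6a2 (0.60 to 0.79), Cox7a1 (0.19 to 0.37) and the 3 isoform ratios were kept under every alternative run. Cox6a1 ran from -0.10 to -0.016 under these alternatives but was 0.0067 within the scan of replicate 3 and 0.035 against features of like brightness. The count of features past the adjusted threshold in limma (0 here) was 187 with normexp background, 1 with the median in place of the 75th percentile, 904 with a variance trend and robust estimation, 9764 with 6 arrays as 6 samples, 83 with the scan as a block and the shared sample as a random block, and 0 to 1376 with a sample left out (276 without si-NC replicate 2, 1376 without si-NC replicates 1 and 3). Of the members, Cox8b passed with normexp (1.27), variance trend (1.22), 6 arrays (1.27) and scan block (1.22) and ranged over 1.14 to 1.32 with a sample left out, passing without either si-NC sample (1.27 and 1.20) in fits whose spread comes from the si-SYISL samples alone, and not without either si-SYISL sample; Cox6a2 passed with variance trend (0.66) and 6 arrays (0.68); Cox7a1 (0.32) and Cox8a (0.064) passed with 6 arrays, which counts near-identical arrays as separate samples. Cox8a turned to -0.016 under quantile normalisation, -0.017 in the deposited series matrix, -0.0081 as the mean of its probes and -0.049 at its other probe, and ranged over -0.0019 to 0.10 with a sample left out. Cox7a2 turned to 0.0080 with normexp and 0.014 with a filter on all 6 arrays, and ranged over -0.039 to 0.021. Under 6 arrays, where 9764 of 28563 features passed, the lists had 6 of 16 genes past the threshold in ATP synthase and 9 of 24 in assembly. Complex I had 16 of 36, complexes II and III 7 of 14, biogenesis 5 of 17 and other subunits 6 of 13. Among forms of metabolism, 12 of 17 muscle and 5 of 17 ubiquitous ones passed. With variance trend (904 of 28563 features) the list counts were 1 in complex I, 1 in biogenesis, 6 muscle and 1 ubiquitous. With normexp (187 of 28563 features) the list counts were 3 muscle and 1 ubiquitous, and with the scan block (83 of 28563 features) 2 muscle. With a sample left out they were 0 to 1 in biogenesis, 0 to 4 muscle and 0 to 1 ubiquitous. The cause of these changes was not tested. List medians near 0 changed sign between settings, apart from assembly (-0.29 to -0.15) and muscle forms of metabolism (0.30 to 0.49). With the replicate number as a block, Cox8b had 1.22 (limma adjusted p = 0.189) and 0 features passed, so the block changed no call. The first scan alone was an alternative chosen after seeing the data. Ckmt2, below background in si-NC, has only a bound.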

Other observations

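Among markers of other cells, Nppb, the natriuretic peptide gene of cardiac muscle, had the smallest p, with a difference of -1.95 ± 0.20 between si-SYISL and si-NC (limma adjusted p = 0.0894). Cidea, a lipid droplet protein gene of brown fat, was well above background on 3 of 3 si-SYISL arrays and 0 of 3 si-NC arrays. Its signal was at least 1.04-fold higher before the median of all features was subtracted (limma adjusted p = 0.120, resting on si-NC values below background). Tcf21, a transcription factor gene of fibroblasts, was likewise below background in si-NC, with a signal at least 1.22-fold higher in si-SYISL before that subtraction. The Cidea bound is smaller than the median rise of all features, 0.16 on the log2 scale. Both bounds are smaller than the median rise of the dimmest bin, 0.36 on that scale, so they show no rise beyond that of dim features.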
